A study of Mus musculus with 4 samples.

Results

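The genes described here encode the 8 subunits of the cytosolic chaperonin, called CCT or TRiC: Tcp1, Cct2, Cct3, Cct4, Cct5, Cct6a, Cct7 and Cct8. They were taken by name from the 49997 genes of the count table, and all 8 were among the 18341 genes with enough reads to be tested. The complex was selected on the difference of Cct3 between the groups, so that the values of Cct3 are given as a description with no test, and the question asked was whether its 7 partners moved with it. RNA had been sequenced from E14 mouse embryonic stem cells (ESCs), a pluripotent line from the early mouse embryo, to learn what loss of YTHDF2 does to their transcripts. YTHDF2 is a cytoplasmic protein that binds mRNA carrying N6-methyladenosine (m6A) and recruits enzymes that shorten the poly(A) tail.

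Each group had 2 libraries. The shScramble cells carried a lentiviral short hairpin RNA (shRNA) with a scrambled sequence, and the shYthdf2 cells carried one against Ythdf2. All cells had been infected and kept as stable lines under puromycin, and all were grown on gelatin with serum replacement and leukemia inhibitory factor. The authors describe their stable knockdown ESCs as carrying a tdTomato transgene driven by the promoter of the MERVL retroelement. The labels do not say which Ythdf2 shRNA a library carries, or whether replicates came from separate infections, so that the p-values measure the spread between these libraries, which may be technical.

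CCT is a barrel of stacked rings in which each ring holds 1 copy of each of the 8 related subunits at a fixed place. Newly made proteins that cannot fold alone, above all actin and tubulin, are closed inside the barrel and released after ATP hydrolysis. Since the ring needs its subunits in equal numbers, their mRNAs are of interest as a group, and pluripotent cells are known for high levels of the complex.

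The knockdown and the depth behind these values were as follows. Ythdf2 itself was at 93.4 and 87.6 CPM in shScramble and at 31.8 and 30.2 CPM in shYthdf2, and the fitted log2 difference was -1.55 ± 0.11 (SE, adjusted p = 6.9e-04 in edgeR), so that 34.2% of its mRNA was left. CPM is a gene's share of the library's reads times 1000000, with the library size scaled by TMM, and libraries held 31113006 to 36422510 counted reads. Of the 10 stem cell markers listed, all were expressed, and their summed level ran from 5835 to 6795 CPM, while 6 fibroblast feeder markers summed to between 12.9 and 28.5 CPM. Each CCT gene had between 7951 and 23105 reads in a library.

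Cct3 (gamma subunit, chr3:88297135-88321766, plus strand, mm10) stood at 278 and 252 CPM in the shScramble libraries and at 638 and 552 CPM in the shYthdf2 libraries. Both shYthdf2 libraries were far above both shScramble libraries, and the groups did not overlap. The fitted log2 fold change was 1.17 ± 0.11 (SE), a 2.24-fold higher level with a 95% interval of 1.88 to 2.68. That interval makes no allowance for the selection of Cct3 on this difference. In the 4 pairings of a knockdown library with a control library the log2 difference ran from 0.99 to 1.34. Of 768 tested genes with a mean of at least 250 CPM, Cct3 had the highest log2 fold change, followed by Vim, an intermediate filament gene, at 1.06. With a mean of at least 100 CPM, 3 of 2494 genes, Cct3 included, had a log2 fold change at least that of Cct3. Since Cct3 was selected on this difference, a high rank was to be foreseen and is no further result. In bulk RNA, a higher level in every cell and a larger share of cells with a high level cannot be told apart.

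**Figure D1:**
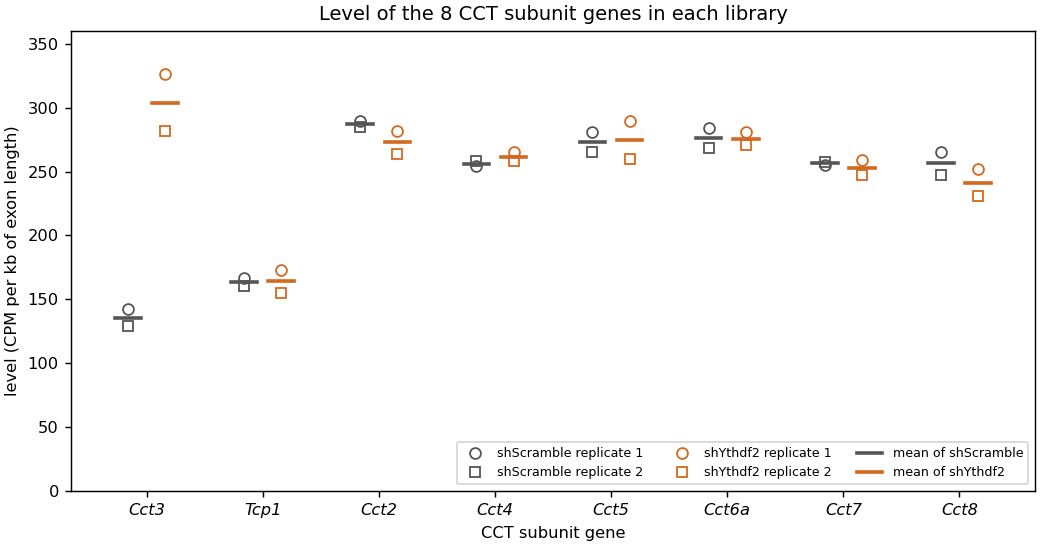
Level of each CCT subunit gene (x axis) as CPM per kb of exon length (y axis, from 0). Circles and squares are the libraries numbered 1 and 2, grey for shScramble and orange for shYthdf2, and bars are group means of 2 libraries. Cct3 moves from a mean of 136 to a mean of 304 while the points of each partner lie close together.

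None of the 7 partners showed a difference of this kind. Their log2 fold changes lay between -0.09 and 0.03 with a median of -0.0024, beside a median of 0.0019 over all genes tested. In edgeR 0 of the 7 partners had an adjusted p under 0.05, 0 had an unadjusted p under 0.05, and DESeq2 and limma-voom also called 0. Over all genes tested, 3.91% were called in either direction, 2.43% as higher and 1.49% as lower. At an unadjusted edgeR p under 0.05, 2024 of the 18341 genes were higher and 1798 lower. The highest upper bound of any partner was 0.25 on the log2 scale, or 1.19-fold, and the lowest lower bound was -0.32, or 0.80-fold.

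In the ring, the gamma subunit sits between the alpha subunit, encoded by Tcp1, and the zeta subunit, encoded by Cct6a. Tcp1 (chr17:12916329-12925067, plus strand), the founding member of the family, was at 417 and 400 CPM in shScramble and at 432 and 388 CPM in shYthdf2. The shYthdf2 libraries lay on either side of the shScramble libraries. Its log2 fold change was 0.0047 with a 95% interval of -0.23 to 0.24 (edgeR adjusted p = 0.99).

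Cct6a (chr5:129787356-129846443, plus strand), the widely expressed one of the zeta genes, was at 617 and 583 CPM in shScramble and at 610 and 588 CPM in shYthdf2. Here the shYthdf2 libraries fell inside the shScramble range. The log2 fold change was -0.0024, with an interval of -0.23 to 0.22 (edgeR adjusted p = 0.99).

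The remaining subunits that bind ATP tightly are beta, delta and epsilon. Cct2 (beta, chr10:117050997-117063852, minus strand) was at 642 and 632 CPM in shScramble and at 625 and 586 CPM in shYthdf2. Both shYthdf2 libraries were slightly below both shScramble libraries, which was so for 25.5% of all genes tested. The log2 fold change was -0.07, with an interval of -0.30 to 0.15 (edgeR adjusted p = 0.73). Cct4 (delta, chr11:22990593-23003336, plus strand) was the steadiest member, at 499.7 and 508 CPM in shScramble and at 522 and 507 CPM in shYthdf2. Its groups overlapped, and its log2 fold change of 0.03 had an interval of -0.19 to 0.25 (edgeR adjusted p = 0.90). Cct5 (epsilon, chr15:31590800-31601846, minus strand), a gene mutated in an inherited human sensory neuropathy, was at 599 and 567 CPM in shScramble and at 617 and 554 CPM in shYthdf2. The shYthdf2 libraries again lay outside the shScramble pair on both sides, with a log2 fold change of 0.0068 and an interval of -0.23 to 0.24 (edgeR adjusted p = 0.98).

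The eta and theta subunits, like gamma and zeta, bind ATP weakly. Cct7 (eta, chr6:85451505-85468477, plus strand) was at 626 and 632 CPM in shScramble and at 635 and 606 CPM in shYthdf2. Its groups overlapped, and the log2 fold change was -0.02 with an interval of -0.24 to 0.20 (edgeR adjusted p = 0.94). Cct8 (theta, chr16:87483325-87495869, minus strand) was at 635 and 592 CPM in shScramble and at 602 and 553 CPM in shYthdf2. The ranges overlapped, since the first shYthdf2 library was above the lower shScramble library. Its log2 fold change of -0.09 was the lowest of the 8, with an interval of -0.32 to 0.14 (edgeR adjusted p = 0.68).

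Counted by position alone, Cct3 was the 1 member with both shYthdf2 libraries above both shScramble libraries, a pattern held by 26.2% of genes tested, Cct2 was the 1 member below in both, and the groups of the other 6 overlapped. The gap between 2 libraries of 1 group reached 0.16 on the log2 scale among the partners, more than any partner's difference between the groups.

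**Figure D2:**
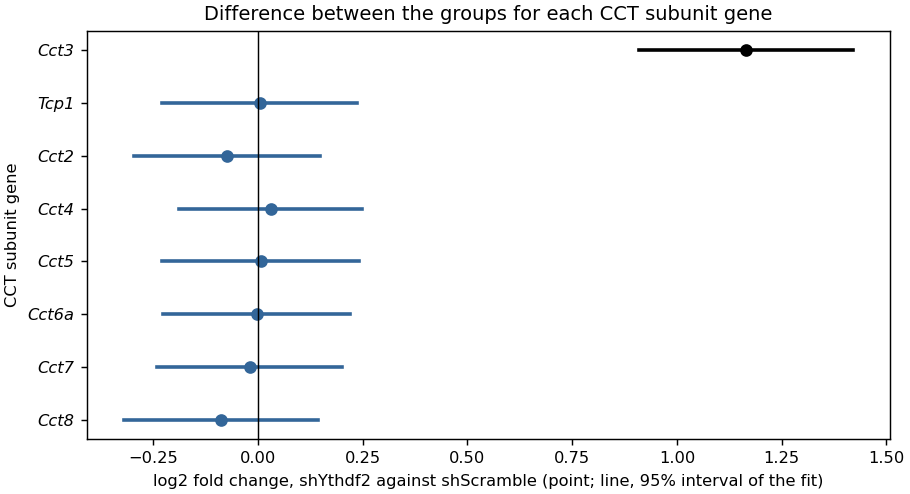
Log2 fold change of shYthdf2 against shScramble (x axis) for each CCT subunit gene (y axis), with points for the estimate and lines for the 95% interval of the fit over 2 libraries a group. The intervals of the 7 partners all cover 0. The interval of Cct3, 0.91 to 1.42, makes no allowance for its selection on this difference and is a description.

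Levels of different genes were compared per length, as CPM per kb of the exon length given in the table. In shScramble the order from the top was Cct2 at 287 ± 3.0 CPM per kb (SD, n = 2), Cct6a at 276 ± 11.3, Cct5 at 273 ± 10.8, Cct8 at 257 ± 12.8, Cct7 at 257 ± 1.9 and Cct4 at 256 ± 2.9. Tcp1 followed at 163 ± 4.6 and Cct3 was last at 136 ± 9.3 CPM per kb. Cct2 lay above Cct6a in both libraries by less than the larger SD, and the libraries of neighbours from Cct6a down to Cct4 overlapped. Both libraries of Tcp1 were below those of Cct4, and both libraries of Cct3 were below those of Tcp1.

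In shYthdf2 Cct3 was the first of the 8, at 304 ± 31.3 CPM per kb. Below it stood Cct6a at 276 ± 7.1, Cct5 at 275 ± 20.9, Cct2 at 273 ± 12.5, Cct4 at 262 ± 5.2, Cct7 at 253 ± 8.6, Cct8 at 241 ± 14.5 and Tcp1 at 164 ± 12.4 CPM per kb. Cct3 led Cct6a by 28.3 CPM per kb, less than its own SD, although both of its libraries were above both of Cct6a. The libraries of neighbours from Cct6a down to Cct8 overlapped, and Tcp1 was again set apart below. So Cct3 went from under all 7 partners in each control library to above all 7 in each knockdown library.

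The place of Tcp1 depended on which bases were counted. Exons of Mrpl18, a mitochondrial ribosomal protein gene, and of Acat3 lie on the opposite strand over 235 and 571 bases of Tcp1, together 32.3% of its exon length, and reads that touch exons of more than 1 gene were not counted. Per kb of the bases that no other gene covers, Tcp1 came to 241 ± 6.7 in shScramble and 242 ± 18.3 in shYthdf2, within reach of the other partners. On this scale, added after the data had been seen, the 7 partners ran from 246 to 296 and from 237 to 285 CPM per kb in the shScramble libraries, a coefficient of variation of 6.88% and 6.44%. Cct3 was at 142 and 129 in those libraries, or 0.51 and 0.48 of the partners' mean, and at 326 and 282 in the shYthdf2 libraries, or 1.17 and 1.09 of it. In the second shYthdf2 library 1 partner, Cct6a, was then marginally above Cct3. With the length of the longest GENCODE transcript in place of the exon length, Cct3 was last of 8 in shScramble and the third in shYthdf2. For Cct6a that transcript is not a protein-coding one.

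Smaller overlaps touch Cct6a (88 bases with Psph), Cct7 (231 bases with Pradc1) and Cct8 (191 bases with Usp16), all on the opposite strand. The counting did not use strand, so that reads touching the shared bases were left out for both genes. No exon of another gene overlaps Cct2, Cct3, Cct4 or Cct5, and no stretch of 150 bases of the Cct3 transcript occurs in the transcript of another gene in GENCODE. Of the overlapping genes, Mrpl18 was at 83.1 and 78.0 CPM in shScramble and 94.9 and 100.1 CPM in shYthdf2, with a log2 fold change of 0.27 (edgeR adjusted p = 0.18). Acat3 was below 1 CPM in all 4 libraries (log2 fold change 0.19, edgeR adjusted p = 0.92). The log2 fold changes of Psph, Pradc1 and Usp16 were 0.12, -0.09 and -0.07 (edgeR adjusted p of 0.75, 0.84 and 0.79), and their groups overlapped.

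On the main scale the make-up of the pool can be read as shares. Cct3 gave 7.33% and 6.89% of the summed level of the 8 genes in shScramble, where an equal share is 12.5%. In shYthdf2 it gave 15.3% and 14.3%. It thus passed from under the equal share to above it in both libraries, a difference of 7.72 percentage points between the group means.

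The sum over the 8 genes was 1938 and 1872 CPM per kb in shScramble and 2127 and 1968 CPM per kb in shYthdf2. The groups did not overlap but the gap was narrow, and the ratio of the means was 1.07. Without Cct3 the sum over the 7 partners was 1796 and 1743 CPM per kb in shScramble and 1801 and 1686 CPM per kb in shYthdf2, a ratio of 0.99 with overlapping groups. Together the 8 genes took between 0.42% and 0.46% of all counted reads.

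**Figure D3:**
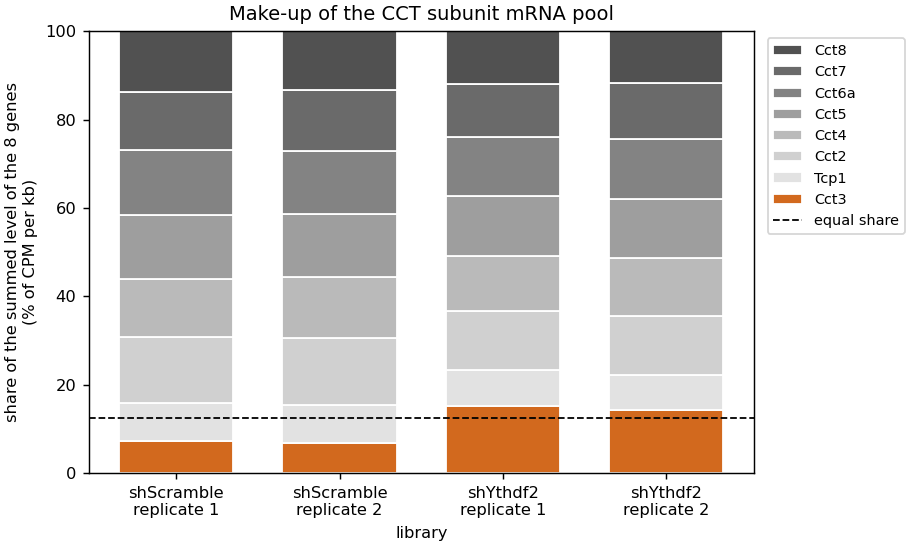
Share of each CCT subunit gene in the summed level of the 8 genes (y axis, % of CPM per kb) in each of the 4 libraries (x axis). Cct3 is the orange block at the bottom, and the dashed line marks the equal share of 12.5%, which Cct3 is below in both shScramble libraries and above in both shYthdf2 libraries.

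Partner by partner, the ratio of Cct3 to each of the 7 others was higher in shYthdf2 by 1.13 (Cct4) to 1.25 (Cct8) on the log2 scale. The ratio to Tcp1 was 0.85 and 0.80 in shScramble and 1.89 and 1.82 in shYthdf2, and the ratio to Cct6a was 0.50 and 0.48 against 1.16 and 1.04. For every partner the lowest ratio in shYthdf2 was above the highest in shScramble, by 1.95-fold for Cct4 up to 2.28-fold for Cct8. These ratios share the values of Cct3 and are 1 observation seen 7 times.

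The start of Cct3 lies back to back with that of Tsacc, a gene that encodes a cochaperone linked to testis-specific kinases. Only 135 bases separate them, and they are shown with the bases of the same length before the starts of Cct2, Cct5 and Cct8, the members for which a window was given that holds no exon of another gene. The sequences are from RefSeq on GRCm38.p6 and are written along each gene's own strand, at chr3:88297000-88297134 (plus) for Cct3, chr10:117063853-117063987 (minus) for Cct2, chr15:31601847-31601981 (minus) for Cct5 and chr16:87495870-87496004 (minus) for Cct8. Capitals mark matches on either strand to the ETS core CCGGAA, the GC box GGGCGG and the CCAAT box, and no matches overlap.
Cct3: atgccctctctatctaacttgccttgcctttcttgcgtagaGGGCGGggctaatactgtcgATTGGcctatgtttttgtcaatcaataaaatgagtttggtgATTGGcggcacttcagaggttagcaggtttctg
Cct2: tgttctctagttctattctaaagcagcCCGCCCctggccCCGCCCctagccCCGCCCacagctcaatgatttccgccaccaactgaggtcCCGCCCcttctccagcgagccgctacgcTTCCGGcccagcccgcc
Cct5: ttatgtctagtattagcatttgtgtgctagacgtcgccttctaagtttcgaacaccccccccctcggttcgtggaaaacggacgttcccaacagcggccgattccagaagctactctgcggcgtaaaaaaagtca
Cct8: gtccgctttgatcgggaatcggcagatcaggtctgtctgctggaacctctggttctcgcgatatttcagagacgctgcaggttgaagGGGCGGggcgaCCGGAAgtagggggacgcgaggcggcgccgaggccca

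The Cct3 window holds 1 GC box at -94 and 2 CCAAT boxes, at -74 and -33 from the start, all counted to the first base of the match, and no ETS core. Cct2 has an ETS core at -17 and 4 GC boxes, and Cct8 has an ETS core at -37 beside a GC box at -48. The Cct3 stretch was also the poorest in G and C of these 4, at 45.9% against 50.4% for Cct5, 63.7% for Cct8 and 65.9% for Cct2.

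Windows of 300 bases, from 250 before to 50 after a start, were found for 7 of the 8 members (all but Cct4), 9 windows in all. The ETS core was in a window of 5 members, Cct2, Cct5, Cct7, Cct8 and Tcp1, and not in those of Cct3 and Cct6a, and it was in 14.9% of all 32851 windows. The GC box was in all 7 members, against 35.7% of all windows, and the CCAAT box in Cct3, Cct6a, Cct7 and Tcp1, against 37.4%. The core of the heat shock element, GAANNTTC, was found only in Cct2 (7.9% of all windows), and the E-box CACGTG (7.2%) and the TATA box TATAAA (13.6%) in no member. These are matches of letters and not bound sites, and Cct2 and Cct5 had 2 windows each in which to match.

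Within the transcripts, the letters GGAC followed by any base but G, forms of the sequence in which m6A is commonly placed, were counted in the longest GENCODE transcript of each member. For Cct6a (3.67 per kb) that transcript is not marked as protein-coding, unlike those of the other members. Cct3 had 11 matches, 5.56 per kb, the most per kb of the 8, with Cct5 close behind at 5.40 per kb. The other 6 ran from 1.64 per kb in Tcp1 to 3.69 per kb in Cct7, where the median over 21405 genes was 3.48. Of those genes 13.6% had as many per kb as Cct3 or more, and 15.5% as many as Cct5, whose level did not pass the test. Whether any of these sites is methylated was not measured in the files used here.

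Neighbours of Cct3 on chromosome 3 were examined next. Tsacc, the divergent neighbour, had 163 and 119 reads in shScramble and 180 and 179 in shYthdf2, which is 3.78 to 5.27 CPM over the 4 libraries. Both shYthdf2 libraries were above both shScramble libraries, with a log2 fold change of 0.30 and an interval of -0.27 to 0.88 (edgeR adjusted p = 0.55). On the other side Glmp, a lysosomal membrane protein gene 3256 bases away, was at 65.5 and 58.9 CPM in shScramble and 77.8 and 72.7 CPM in shYthdf2. Its groups did not overlap either, and 26.2% of all genes tested had this pattern of higher shYthdf2 libraries. The log2 fold change of Glmp was 0.27 (edgeR adjusted p = 0.21). Both estimates were far smaller than that of Cct3.

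Within 1 Mb of Cct3 there were 67 other tested genes, of which 2 were called, beside 3.91% of all genes tested. In edgeR 1 was called higher, Nes, which encodes the intermediate filament protein nestin (log2 fold change 0.79 ± 0.17 SE, adjusted p = 0.035), and 1 was called lower, Arhgef2, which encodes a microtubule-bound protein (log2 fold change -0.52 ± 0.12 SE, adjusted p = 0.042). The call of Nes was lost without shYthdf2 replicate 1 and that of Arhgef2 without shScramble replicate 1 (adjusted p of 0.066 and 0.12). The median log2 fold change of the 67 was 0.08, beside -0.04 over the 799 tested genes of chromosome 3.

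**Figure D4:**
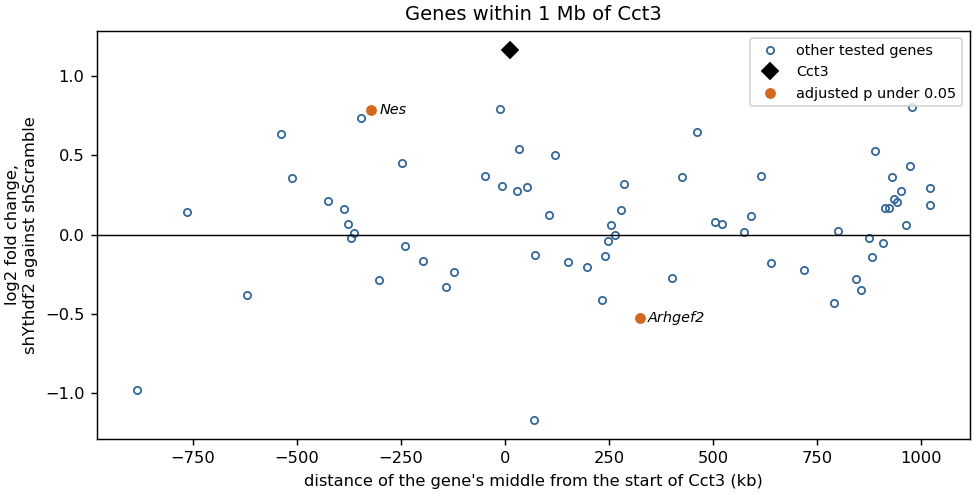
Log2 fold change of shYthdf2 against shScramble (y axis) for tested genes within 1 Mb of Cct3, by the distance in kb of the gene's middle from the start of Cct3 (x axis). The black diamond is Cct3 at 1.17, filled circles are Nes and Arhgef2, and open circles are the 65 genes that did not pass the test.

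No relative of the subunits was called. The lists from here on are short, and their counts are to be read beside those over all genes tested. There edgeR called 2.43% as higher and 1.49% as lower, and had 2024 higher and 1798 lower of 18341 at an unadjusted p under 0.05. DESeq2 called 808 genes higher and 615 lower, and limma-voom 368 and 253. Of 5 paralogs and chaperonin-like genes (Cct6b, Cct8l1, Mkks, Bbs10 and Bbs12) edgeR, DESeq2 and limma-voom called 0, and 0 had an unadjusted edgeR p under 0.05. Their median log2 fold change was -0.19, from -0.37 for Cct8l1 to 0.07 for Mkks, a chaperonin-like gene of Bardet-Biedl syndrome. Cct8l1 had only 21 to 52 reads in a library and Cct6b 32 to 46. Their intervals were wide, at -1.59 to 0.85 and -1.13 to 0.76. The mitochondrial chaperonin is a barrel of the other chaperonin class, built from a single kind of subunit. Hspd1 (HSP60) was at 1156 and 1132 CPM in shScramble and 1232 and 1128 CPM in shYthdf2, a log2 fold change of 0.04, and its lid Hspe1 differed by 0.05 (edgeR adjusted p = 0.86 for both, with 0 of the 2 under an unadjusted p of 0.05 and 0 called by DESeq2 or limma-voom).

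Upstream of CCT, prefoldin carries unfolded actin and tubulin to the barrel. Of its 6 subunit genes edgeR called 0 in either direction, as did DESeq2 and limma-voom, and 1, Vbp1, had an unadjusted edgeR p under 0.05. Vbp1 was at 98.8 and 112 CPM in shScramble and 83.3 and 85.9 CPM in shYthdf2, with a log2 fold change of -0.32 (edgeR adjusted p = 0.14). The highest of the 6 was Pfdn1, with 0.16 (edgeR adjusted p = 0.44), and the median was -0.02.

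The prefoldin-like and R2TP genes, which assemble large protein complexes with HSP90, had 8 of 9 members in the table. The median log2 fold change was 0.12. In edgeR 1 was called higher and 0 lower, beside 2.43% and 1.49% of all genes tested. At an unadjusted edgeR p under 0.05, 2 were higher and 2 lower, beside 2024 higher and 1798 lower among all 18341 genes. Of these, Pdrg1 was higher by 0.48, and Rpap3 and Wdr92 were lower, at -0.37 and -0.32 (edgeR adjusted p of 0.10, 0.097 and 0.19). The gene called was Pih1d1, the phosphopeptide-binding adaptor of R2TP, at 36.2 and 36.6 CPM in shScramble and 54.2 and 49.3 CPM in shYthdf2. Both shYthdf2 libraries were higher, by 0.51 ± 0.12 (SE) on the log2 scale (edgeR adjusted p = 0.048), close to the threshold. The call was lost in limma-voom, without either shScramble library and without shYthdf2 replicate 1.

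The phosducin-like genes, cochaperones that sit on CCT and tune its work on G protein and cytoskeletal subunits, had 4 of 5 members tested. In edgeR 0 were called, 0 had an unadjusted p under 0.05, and DESeq2 and limma-voom called 0. Log2 fold changes ran from -0.14 for Pdcl to 0.59 for Pdcl2, a lowly expressed gene that was at 5.56 CPM in the second shYthdf2 library and between 2.54 and 2.83 CPM in the other 3.

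After release from CCT, tubulin passes to the tubulin folding cofactors. The median log2 fold change of the 7 was -0.06. In edgeR 1 of 7 was called higher and 0 lower, beside 2.43% and 1.49% of all genes tested. At an unadjusted edgeR p under 0.05, 2 were higher, Tbcc and Tbcel, and 0 lower. Among all 18341 genes 2024 were higher and 1798 lower at that threshold. The gene called was Tbcc, cofactor C, which helps to release finished tubulin dimers. It was at 16.6 and 13.3 CPM in shScramble and 37.2 and 31.6 CPM in shYthdf2, both of the latter far above both of the former. The log2 fold change was 1.20 ± 0.17 (SE, edgeR adjusted p = 0.0077), beside 1.17 for Cct3, and DESeq2 and limma-voom called it as well. Of the other cofactors, Tbcd had the lowest value, -0.13, and Tbcel the highest, 0.27 (edgeR adjusted p of 0.53 and 0.23).

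The best known substrates are the tubulins and actins. Of 14 tubulin genes edgeR called 1 higher and 0 lower, beside 2.43% and 1.49% of all genes tested. The median log2 fold change was 0.08. At an unadjusted p under 0.05 edgeR had 4 higher and 1 lower, beside 2024 higher and 1798 lower among all 18341 genes. DESeq2 called 2 higher, Tuba1a and Tubb4b (log2 fold change 0.45, edgeR adjusted p = 0.078), and limma-voom called Tuba1a. Tuba1a, an alpha-tubulin, was at 261 and 255 CPM in shScramble and 367 and 364 CPM in shYthdf2, a clear separation of 0.50 ± 0.10 (SE) on the log2 scale (edgeR adjusted p = 0.027), a call lost without either shScramble library. Of 6 actin genes 3 were tested and edgeR, DESeq2 and limma-voom called 0, with 0 at an unadjusted edgeR p under 0.05. Actb, cytoplasmic beta-actin, was at 1769 and 1509 CPM in shScramble and 2082 and 1845 CPM in shYthdf2, a log2 fold change of 0.26 (edgeR adjusted p = 0.24). Actg1, cytoplasmic gamma-actin, went the other way, with 1525 and 1413 CPM in shScramble and 1392 and 1298 CPM in shYthdf2. Its log2 fold change was -0.13 (edgeR adjusted p = 0.54). Acta1, the skeletal muscle actin, was below 1 CPM in all libraries (log2 fold change -0.46, edgeR adjusted p = 0.82).

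Among 10 genes of other CCT substrates, WD40 proteins and cell cycle regulators, edgeR and limma-voom called 0, DESeq2 called 1, Ccne1, and 1 had an unadjusted edgeR p under 0.05. Ccne1, cyclin E1, was at 162 and 161 CPM in shScramble and 202 and 227 CPM in shYthdf2, a log2 fold change of 0.41 (edgeR adjusted p = 0.064), and the lowest was Hdac3 at -0.10. The median of the 10 was -0.0066. The heat shock factors Hsf1 and Hsf2, which drive chaperone genes under stress, had log2 fold changes of 0.13 and -0.17 (edgeR adjusted p of 0.63 and 0.51, with 0 unadjusted p under 0.05 and 0 called by DESeq2 or limma-voom).

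**Figure D5:**
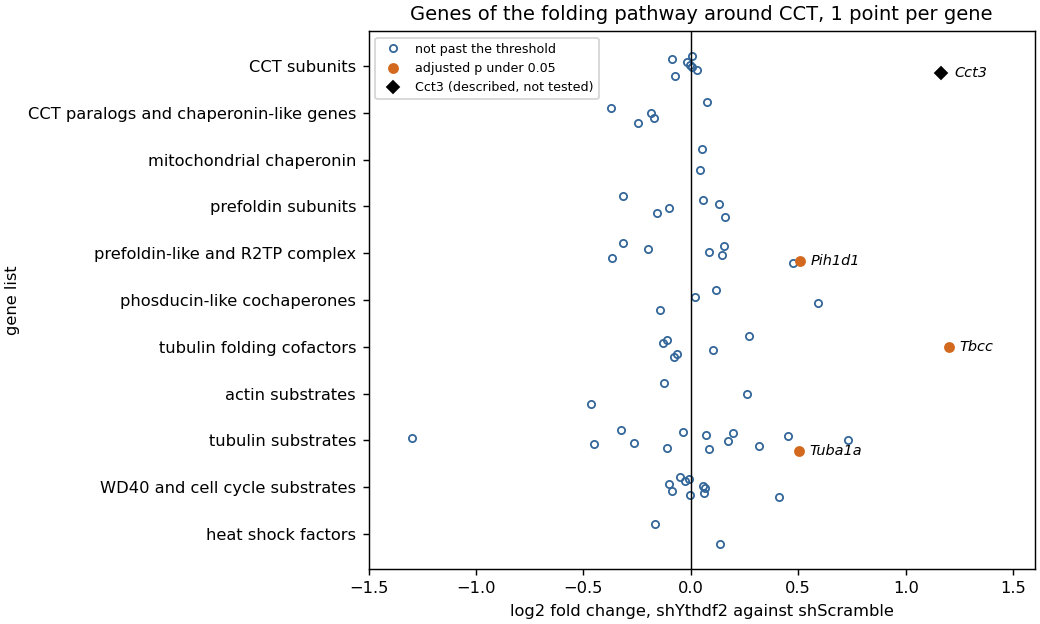
Log2 fold change of shYthdf2 against shScramble (x axis) for the tested genes of 11 lists around the CCT pathway (y axis), 1 point per gene. Filled circles passed an adjusted p of 0.05 (Pih1d1, Tbcc and Tuba1a), open circles did not, and the black diamond is Cct3, which is described and not tested.

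Over the 4 libraries, the genes with the pattern most like that of Cct3 were Btbd19, Plekhg1, Glis3, Ccdc141 and Tbcc. Likeness was the Euclidean distance between log2 CPM values taken relative to each gene's own mean, among genes with a mean of at least 10 CPM, and these 5 had distances of 0.06 to 0.14. Btbd19, the nearest, was at 33.0 and 31.4 CPM in shScramble and 75.5 and 67.7 CPM in shYthdf2. The 7 CCT partners ranked from 4298 to 5872 of 9536 genes on the same measure. With 4 libraries a distance mostly restates the size of the difference between the groups, and by Pearson correlation 0 of these 5 genes were among the nearest 5.

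Markers of other cell states were set beside Cct3. The 15 markers of 2-cell-like cells, a rare state of ESC cultures in which genes of the early embryo are active, summed to 48.4 and 70.7 CPM in shScramble and to 90.4 and 251 CPM in shYthdf2. All 14 tested had positive log2 fold changes, with a median of 1.36. Of these, 12 had an unadjusted edgeR p under 0.05, beside 2024 higher and 1798 lower among all 18341 genes. After adjustment edgeR called 2 of the 14 higher, where 2.43% of all genes were, DESeq2 called 2 (Usp17la and Zscan4f) and limma-voom 1 (Usp17la). The genes called in edgeR were Zscan4a and Usp17la, with log2 fold changes of 2.28 ± 0.48 and 1.29 ± 0.26 (SE, adjusted p of 0.034 and 0.029). Without shYthdf2 replicate 2 the value of Zscan4a was 1.09, and DESeq2 and limma-voom did not call it. Of the 14 tested, 12 had both shYthdf2 libraries above both shScramble libraries, beside 26.2% of all genes tested. The sum, like Cct3, was higher in both shYthdf2 libraries. The sum was highest in the second shYthdf2 library, where Cct3 was the lower of the 2. Their part in the Cct3 result was not tested.

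Of the 10 stem cell markers edgeR called 1 lower, Tdgf1, a Nodal coreceptor gene, by -0.47 ± 0.11 (SE) on the log2 scale (adjusted p = 0.041). It called 0 higher, where 1.49% of all genes tested were called lower and 2.43% higher. Before adjustment 4 of the 10, all lower, had an edgeR p under 0.05, beside 1798 lower among all 18341 genes. DESeq2 and limma-voom each called 2 lower, Tdgf1 and Nanog, a core pluripotency factor (log2 fold change -0.41, edgeR adjusted p = 0.059). In edgeR the call of Tdgf1 was lost without shScramble replicate 2 (adjusted p = 0.27). For fibroblast feeders edgeR, DESeq2 and limma-voom called 0 of 4 tested, with 1 unadjusted edgeR p under 0.05. Feeder values ran from -0.94 (Col1a1) to 0.12 (Col1a2, below 1 CPM throughout). For trophoblast these methods called 0 of 5, with 1 unadjusted edgeR p under 0.05. Trophoblast values ran from -0.69 (Hand1) to 0.84 (Cdx2), both genes below 1 CPM throughout. The trophoblast sums were 90.05 and 99.3 CPM in shScramble and 124 and 95.6 CPM in shYthdf2. For primitive endoderm these methods called 0 of 6, with 0 unadjusted. Values there ran from -0.59 (Sox7, at most 1.17 CPM) to 0.51 (Dab2), with sums between 12.0 and 19.5 CPM.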

How the data were processed

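RNA was extracted with Trizol, made into stranded dUTP libraries and read as pairs. The authors deposited raw counts, with a column for each of the 4 libraries, neither normalized nor pooled. Per the file headers, featureCounts (version 2.0.3) counted reads over exons of the RefSeq genes of mm10. The submitters' processing notes name fastp (0.19.4), HISAT2 (2.2.1) and DESeq2 (1.40.2). Single reads were counted and not read pairs, strand was not used, and reads over several genes or positions were left out, so that genes with overlapping exons are under-counted. A pair can thus count as 2 reads, which overstates counting precision. All 4 columns were used.

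Samples were grouped by their titles. The counts were tested with edgeR (4.0.16, R 4.3.3) by the two-sided quasi-likelihood F test with TMM scaling, filterByExpr (count of at least 10, total of at least 15) and the group as the only term. Adjusted p-values are by Benjamini-Hochberg over 18341 genes, with a threshold of 0.05. The biological coefficient of variation was 15.8%. Intervals are at 95% and use the degrees of freedom of the fit. An exact permutation test of 2 against 2 libraries could not go below p = 0.333. The code was tested on simulated counts. The alternatives were RLE, upper-quartile and no scaling, other filters, DESeq2 (1.42.0), limma-voom (3.58.1), halved counts, the replicate number as a block, and each library left out. Lengths free of other exons and GENCODE M21 transcript lengths were added after the data had been seen, since no RefSeq transcript length was at hand.

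The members and the gene lists were chosen with earlier results of these data known. Named were the members, Ythdf2, the genes called in a list or its highest and lowest gene where none was called, genes overlapping a member, the neighbours of Cct3, and the 5 genes most like it. Vim, Nes, Arhgef2, Tbcd, Tbcel, Actg1, Hspd1 with its partner, and the members of other small counts were named after their values had been seen.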

Additional observations from a re-analysis of the deposited data

How the results depend on the processing

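The direction of Cct3 held under all 13 alternatives, with log2 fold changes from 1.06 to 1.27, the lowest on leaving out shYthdf2 replicate 1 and the highest on leaving out its replicate 2. Cct3 was selected on this difference and the alternatives reuse the same reads, so that this is a description and no further support. The partners were called under 0 of their 91 settings, and their log2 fold changes over these stayed between -0.15 and 0.08. Partner values so near 0 changed sign without passing any threshold. Tcp1 gave -0.013 with upper-quartile scaling, -0.0003 with library totals, -0.0033 when genes needed a mean of 1 CPM, and -0.076 to 0.080 with 1 library left out. Cct5 gave -0.011 with upper-quartile scaling, -0.0012 when genes needed a mean of 1 CPM, and -0.074 to 0.083 with 1 library left out. Cct6a gave 0.0017 without a filter and -0.044 to 0.041 with 1 library left out, and Cct7 -0.055 to 0.015.

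Counts over all genes moved more. Genes called higher and lower numbered 1095 and 843 without a filter, 808 and 615 with DESeq2, and from 533 to 1175 and from 300 to 1113 with 1 library left out, the latter highest without shYthdf2 replicate 2. Without shScramble replicate 1 they were 692 and 592, and without shYthdf2 replicate 1 they were 642 and 522. The labels do not say whether libraries of the same replicate number were handled together. The correlation between the deviations of same-numbered libraries was 0.23. With the replicate block the counts were 1851 and 1674, and 0 of the 7 partners were called. Calls then numbered 11 higher among 2-cell-like markers, 4 higher among tubulins and 4 lower among stem cell markers. Fibroblast feeder markers had 3 lower (Col1a1, Pdgfrb and Thy1), and the R2TP list had 2 higher and 2 lower. Vbp1 was called lower, and Actb, Ccne1 and Tfap2c higher. The cause of these moves was not tested. Pih1d1 was called under 7 of 13 alternatives, and also lost its call with RLE and upper-quartile scaling. Tuba1a and Zscan4a were called under 11, Nes, Arhgef2 and Tdgf1 under 12, and Tbcc and Usp17la under all 13. The log2 fold change of Zscan4a ran from 1.09 to 2.93 as shYthdf2 replicate 2 or 1 was left out. With 1 library left out, the log2 ratio of the summed level ran from 0.047 to 0.16 around 0.10, lowest on dropping the first shYthdf2 library and highest on dropping the second, and the difference in the share of Cct3 from 7.21 to 8.22 percentage points. Other scalings left the share as it was and the log2 ratio at 0.087 or above. With 2 libraries a group, the intervals leave room for partners up to 1.19-fold higher or down to 0.80-fold.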
